A study of Mus musculus with 12 samples.

Results

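Mcam and 9 further cell adhesion molecules of the immunoglobulin superfamily were followed in ribosome-associated RNA and total RNA of cultured mouse dorsal root ganglion (DRG) neurons. The 10 genes (Mcam, Alcam, L1cam, Ncam1, Ncam2, Nrcam, Chl1, Cntn1, Cntn2 and Cadm1) were taken by their symbols. All 10 are among the 9112 genes listed in both deposited count tables, and all 10 passed the filter on low values. The mice were RiboTag animals, homozygous for an allele that adds an HA tag to the ribosomal protein Rpl22 wherever Cre recombinase acts. Rpl22HA/HA Runx3-Cre+ cultures carried a single copy of Cre driven by Runx3, a transcription factor of proprioceptive neurons, and Rpl22HA/HA Runx3-Cre- littermates had no Cre. The labels describe male mice of 3 to 6 months, while the study's methods give a younger age. Each sample pooled DRG neurons of 5 mice after 24 h in culture, and RNA came from the HA pull-down and from the 10% of the lysate kept as input. There were 3 pull-downs and 3 inputs with each genotype label, 12 libraries in all. The p-values below measure the spread between these pooled samples.

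Cell adhesion molecules of the immunoglobulin superfamily are membrane proteins that carry immunoglobulin domains outside the cell and bind like or unlike molecules on neighboring cells. On axons they hold fibers together in fascicles, guide growth cones and build the contacts with glia at nodes of Ranvier. In sensory neurons L1cam and the neural cell adhesion molecules cover axons and growth cones, and contactins sit at the nodes and the segments beside them. Mcam is also well known from endothelial cells and smooth muscle, and Alcam from many epithelial and immune cells.

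The libraries held 8886308 to 18633365 counts each. Values are given as normalized counts, which are counts scaled to 1000000 per library after TMM normalization of all 12 libraries. Sums over marker lists are the exception. For them the normalization was made within the libraries of each genotype label alone, over the genes listed for it. Sums of unlike labels, and sums and member values, are therefore not on exactly the same scale. The labels were checked with Runx3. The pull-down exceeded its input by 1.55 on the log2 scale (standard error, SE, 0.87, FDR = 0.309) with the Cre+ label and by 3.52 (SE 0.43, FDR = 0.000236) with the Cre- label. These come from edgeR's quasi-likelihood test, and FDR is the Benjamini-Hochberg adjusted p-value over all genes tested. The summed level of the proprioceptor markers Runx3, Ntrk3, Pvalb, Etv1, Spp1 and Whrn was 351 to 527 in the Cre+ pull-downs and 1251 to 1549 in the Cre- pull-downs, and Pvalb is listed only in the table of the Cre- libraries and enters only the second sum. Both sets of pull-downs stood above their inputs, at 179 to 242 with the Cre+ label and 210 to 293 with the Cre- label. Of the 5 markers tested with the Cre+ label, only Ntrk3 was called (log2 fold change 2.19, FDR = 0.025). Ntrk3 also held the most counts of them in these pull-downs, 2139 to 3073, against 410 to 783 for Etv1, the next. The log2 fold changes were above 0 for 4 of the 5, with Etv1 at 0.24, whereas Spp1 had -0.95. The driver gene thus passed the test in the libraries that the labels give as lacking Cre and not in the others, while its difference between both was -1.93 (FDR = 0.302). Genotype names below mean the labels as deposited. Columns holding the Cre+ pull-downs carry names that also resemble titles of Cre- samples, and were the labels exchanged, the sign of each difference between genotypes, that of Mcam included, would turn. An exchange was not tested. Pairs of Cre+ pull-downs also correlated less across genes (r of 0.707 to 0.845) than pairs in the other groups (0.919 to 0.978), and library 1 took part in both of the lowest values. In these bulk samples, fewer cells of a type and less RNA per cell cannot be told apart.

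Mcam, a transmembrane adhesion molecule that binds laminin and growth factors, was the member with the largest estimated difference between the genotype labels. The differences of Ncam2 and Cadm1 came close in size, with larger standard errors. Mcam lies on the plus strand of chr9:44134658-44142727 (GRCm38, the assembly of mm10), with exons of 3.35 kb in total, the shortest of the 10. In the inputs it was steady, with 107, 115 and 103 normalized counts in the libraries labelled Cre+ and 121, 120 and 121 in those labelled Cre-. The pull-downs labelled Cre+ had 98.8, 65.9 and 95.0, and each lay below each of their inputs. The pull-downs labelled Cre- had 308, 330 and 399, and each lay far above each of their inputs. At least 511 counts stood behind each of these values.

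The mean of Mcam was 86.6 ± 18.0 (SD, n = 3) in the Cre+ pull-downs and 108 ± 6.05 in their inputs, a log2 fold change of -0.33 (SE 0.34, FDR = 0.576, edgeR's quasi-likelihood test), which did not pass the threshold. It was 346 ± 47.5 in the Cre- pull-downs and 121 ± 0.815 in their inputs, a log2 fold change of 1.54 (SE 0.16, FDR = 7.6e-05). In the fit of all 12 libraries the difference of both enrichments was -1.84 (SE 0.30, FDR = 0.013), a 3.59-fold lower enrichment with the Cre+ label. Compared directly, the Cre+ pull-downs held 4.05-fold less Mcam than the Cre- pull-downs (log2 fold change -2.02, SE 0.28, FDR = 0.0205). The call on the difference was made under all 18 alternatives, with an FDR of at most 0.0684. The alternative without a fold limit kept the main fit and could not lose this call. The direct call was lost without Cre- pull-down library 2 (FDR = 0.12) or library 3 (FDR = 0.185). The log2 fold changes in these 2 fits were -2.05 and -1.90. They called 17 and 15 of all genes, against 256 with all libraries.

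**Figure D1:**
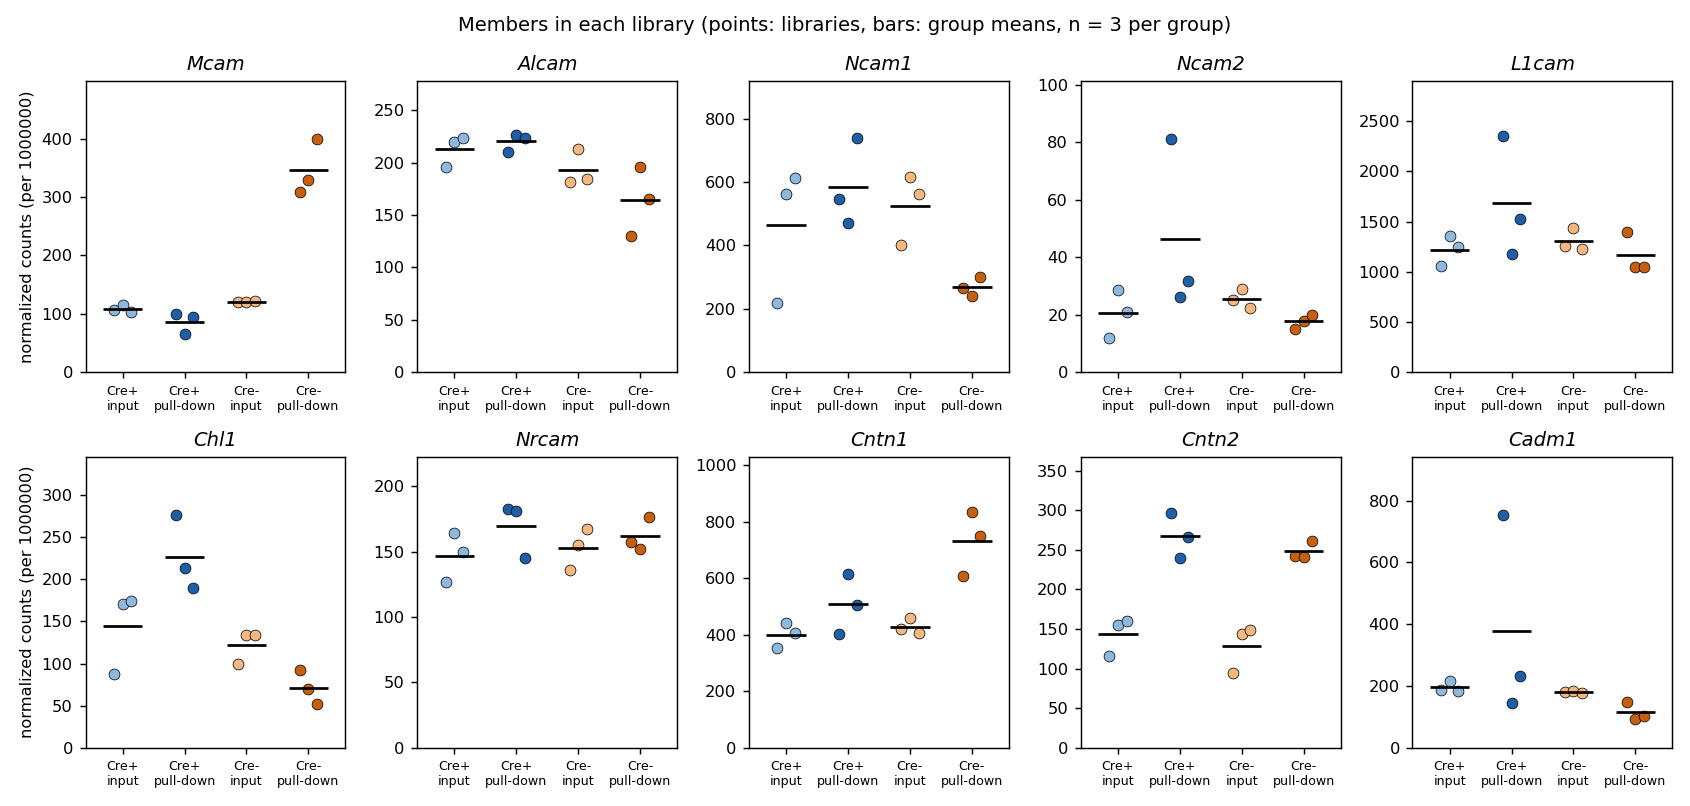
Normalized counts (per 1000000) of the 10 members in each of the 12 libraries, with points for libraries, bars for means of 3 and each axis starting at 0. Mcam stands between 308 and 399 in the Cre- pull-downs and between 65.9 and 121 in the other 9 libraries, while Cadm1 and Ncam2 are high in 1 Cre+ pull-down.

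Markers of cell types that could also hold Mcam RNA were read in the same libraries. The endothelial list (Pecam1, Cdh5, Kdr, Tek, Flt1, Cldn5 and Emcn, of which 6 are listed) summed to 24.9 to 186 normalized counts in the Cre- pull-downs and 91.7 to 141 in their inputs. In the Cre+ libraries it summed to 128.5 to 793 in the pull-downs, with the highest value in library 1, and to 99.2 to 118 in the inputs. None of the 6 listed endothelial markers was at 0 in any library. With the Cre+ label 2 of 6 tested were called higher by edgeR's quasi-likelihood test, beside 4.72% of all genes. These were Tek (log2 fold change 3.98, SE 1.09, FDR = 0.0855) and Flt1 (2.83, SE 0.81, FDR = 0.0951), both close to the threshold. Tek had 18 to 415 counts in these pull-downs and 16 to 20 in their inputs. With the Cre- label 0 of 5 tested were called, beside 11.8% of all genes. In the difference Tek was called higher (4.41, SE 1.19, FDR = 0.0797), beside 2.33% of all genes. The list of pericytes and smooth muscle (Pdgfrb, Rgs5, Cspg4, Kcnj8, Acta2 and Tagln, 5 listed) summed to 18.0 to 72.3 in the Cre- pull-downs, against 73.3 to 88.6 in their inputs, and in the Cre+ libraries its 4 listed genes summed to 51.6 to 93.3 and 57.0 to 76.8. Rgs5 (log2 fold change -1.41) and Tagln (-1.44), the 2 tested, were called lower with the Cre- label, beside 5.83% of all genes. Neither was called with the Cre+ label, beside 6.91%. The 12 sensory neuron markers summed to 49288 to 56836 in the Cre- pull-downs and to 21241 to 29353 in the other 9 libraries. The proprioceptor markers were all called higher in the Cre- pull-downs, 6 of 6, beside 6.01% of all genes tested. With the Cre+ label 1 of 5 tested was called higher, beside 4.72%. Nefh (log2 fold change 1.35), Nefm (1.29) and Snap25 (1.17) were the sensory neuron markers called higher in the Cre- pull-downs, beside 6.01% of all genes. Another 5 of the 12 had a log2 fold change below 0, among them Rbfox3 with -0.76 (FDR = 0.0045). With the Cre+ label, Uchl1 (-1.85) and Tubb3 (-1.19) were called lower, beside 2.19% of all genes, and 0 of the 12 higher, beside 4.72%. In the difference, Snap25 (-1.76) and Uchl1 (-1.95) were called lower, beside 2.03% of all genes, and Rbfox3 (1.02) higher, beside 2.33%. The sensory neuron sum was mostly made up of Nefl, Nefm and Snap25. Each held 203236 to 278065 counts in the Cre- pull-downs, and Nefh, the next, at most 55248. This sum was high in the same libraries as Mcam, and its part in the difference of Mcam was not tested. Of the 5 proprioceptor markers tested in the difference, Spp1 and Etv1 were called lower, the direction of Mcam, beside 2.03% of all genes. Ntrk3 had a difference of 0.16 (FDR = 0.814).

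Of the 10 members, none was called in the libraries labelled Cre+ with edgeR's quasi-likelihood test, where a call needed both an FDR below 0.1 and 2-fold change, against 6.91% of the 8947 genes tested. Those 618 calls on all genes fell to 7, 74 and 4 without Cre+ input library 1, 2 or 3, and rose to 1343 without pull-down library 1. Cntn2 alone had an unadjusted p below 0.05, DESeq2 and edgeR's exact test also called 0 members, and only the fit of all 12 libraries called 1, Ncam2 (FDR = 0.0913). The log2 fold changes ran from -0.33 to 1.18 with a median of 0.40, and that of all genes tested was 0.076. They were above 0 for 9 of the 10 members, but for 7 with upper-quartile scaling and for 4 with scaling by library size alone, where the median of all genes moved to -0.115 and -0.361. All pull-downs stood above all inputs for Chl1 and Cntn2 and below them for Mcam, 3 of 10 members, while 33.4% of all genes had groups that did not overlap.

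In the libraries labelled Cre-, Mcam was the only member called, 1 of 10, where 11.8% of the 11526 genes tested were called. Without the fold limit, 3 members rose (Mcam, Cntn1 and Cntn2) and 3 fell (Ncam1, Chl1 and Cadm1), against 13% of all genes higher and 11.1% lower. None of these last 3 reached 2-fold. Their FDR was above 0.1 in the fit of all 12 libraries, at 0.129 for Ncam1, 0.202 for Chl1 and 0.522 for Cadm1, and that of Chl1 and Cadm1 also without some single libraries, at up to 0.128 and 0.151. The fit of all 12 libraries called 445 of 8954 genes with the Cre- label, against 1365 of 11526. Groups did not overlap for these 6 members and for Ncam2, 7 of 10, beside 36.8% of all genes. The median of the 10 was -0.18, against -0.038 over all genes, and members in each direction were found under each scaling.

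**Figure D2:**
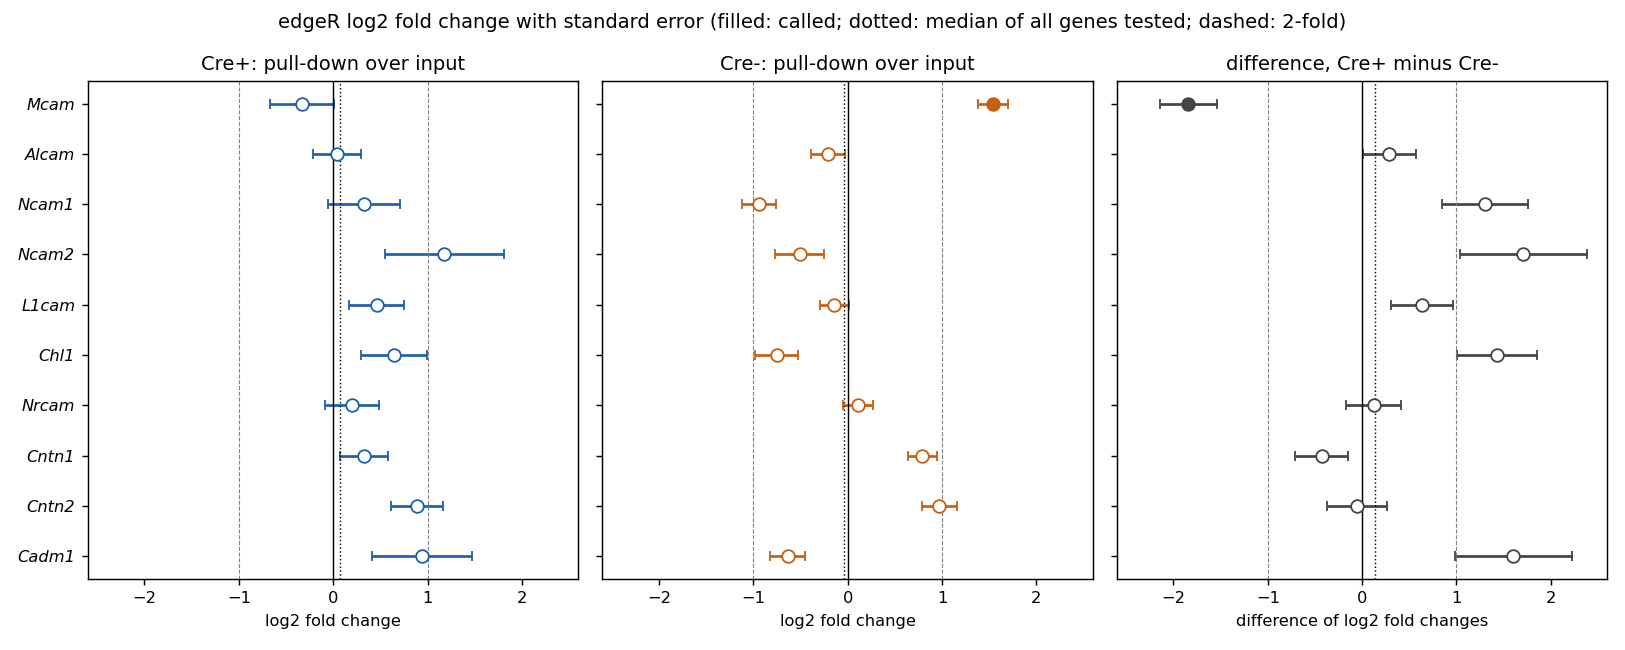
Log2 fold changes from input to pull-down with the Cre+ and the Cre- label, and the difference of both, for the 10 members with standard errors from edgeR (3 libraries per group). Filled points were called at FDR below 0.1 and 2-fold, which holds for Mcam in the Cre- libraries (1.54) and in the difference (-1.84).

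The neural cell adhesion molecules Ncam1 and Ncam2 are paralogs that bind themselves across membranes, and Ncam1 is the main carrier of polysialic acid in the nervous system. Ncam1 (chr9:49502129-49799393, minus strand) had 266, 242 and 301 normalized counts in the Cre- pull-downs and 400, 615 and 564 in their inputs. Each pull-down lay below each input, and Ncam1 fell by 0.94 on the log2 scale (SE 0.18, FDR = 0.00401, edgeR's quasi-likelihood test), just short of 2-fold. In the Cre+ libraries it had 546, 472 and 740 in the pull-downs and 218, 562 and 612 in the inputs. These groups overlapped, with input library 1 at less than the other inputs, and the log2 fold change was 0.32 (SE 0.38, FDR = 0.635). Of the exon bases of Ncam1, 4.81% overlap the antisense gene Gm11149, whose reads cannot be told apart where strand was not used in counting.

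Ncam2 (chr16:81200697-81624290, plus strand), best known from olfactory axons, had the lowest level per kb of exon, with 132 to 710 counts per library. Its pull-downs labelled Cre+ had 80.9, 26.2 and 31.7 normalized counts against 11.9, 28.4 and 20.9 in the inputs. Libraries 1 and 3 stood above all 3 inputs, library 1 by far the most, and the log2 fold change of 1.18 had an SE of 0.63 (FDR = 0.289, edgeR's quasi-likelihood test). Without that library it was 0.52 (FDR = 0.526). The Cre- pull-downs had 14.9, 17.9 and 20.0 against 25.0, 29.0 and 22.3 in the inputs, groups that did not overlap, with a log2 fold change of -0.51 (SE 0.26, FDR = 0.206).

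L1cam, Chl1 and Nrcam form the L1 family together with neurofascin, and their cytoplasmic tails bind ankyrins. L1cam (chrX:73853778-73880838, minus strand, 1.36% of its exon bases shared with Arhgap4) had the highest level per kb of exon in every group. Its pull-downs labelled Cre+ had 2353, 1177 and 1526 normalized counts, and their inputs 1054, 1352 and 1248. Library 1 was again the highest, and the log2 fold change of 0.46 (SE 0.29, FDR = 0.36, edgeR's quasi-likelihood test) became 0.17 without it. The Cre- pull-downs had 1397, 1052 and 1051, against 1259, 1434 and 1231 in their inputs. The first lay within the range of the inputs and the others below it (log2 fold change -0.14, SE 0.15, FDR = 0.577).

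Chl1, the close homolog of L1, lies on the plus strand of chr6:103510584-103733038. The Cre+ pull-downs had 277, 213 and 190.0 normalized counts, all above their inputs at 87.8, 171 and 174. In the Cre- libraries the order was turned, with 92.9, 69.2 and 52.3 in the pull-downs and 99.9, 134 and 134 in the inputs. It changed by 0.64 (SE 0.35, FDR = 0.291) with the Cre+ label and -0.75 (SE 0.22, FDR = 0.0368) with the Cre- label by edgeR's quasi-likelihood test. The difference of 1.43 (SE 0.43) missed the threshold at FDR = 0.102.

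Nrcam (chr12:44328786-44605194, plus strand), which gathers at nodes of Ranvier, hardly varied. Its 12 values ran from 127 to 183 normalized counts. Group means were 170 ± 21.3 (SD, n = 3) and 147 ± 18.9 in the Cre+ pull-downs and inputs, and 162 ± 12.9 and 153 ± 16.0 in those labelled Cre-. The groups overlapped in both genotypes, and the difference of both enrichments was 0.12 with an SE of 0.29 (FDR = 0.845, edgeR's quasi-likelihood test).

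The contactins Cntn1 and Cntn2 are held in the membrane by a lipid anchor and pair with the contactin-associated proteins, Cntn1 at the paranodes and Cntn2 at the juxtaparanodes of myelinated axons. Cntn2 (chr1:132509425-132543251, minus strand) was alike in both genotypes. The pull-downs labelled Cre+ had 296, 240 and 267 normalized counts against 116, 155 and 160 in the inputs. The pull-downs labelled Cre- had 243, 241 and 261 against 94.1, 143 and 149. All 6 pull-downs therefore stood above all 6 inputs. The log2 fold changes were 0.89 (SE 0.28, FDR = 0.108) and 0.97 (SE 0.19, FDR = 0.00434) by edgeR's quasi-likelihood test, and they differed by -0.052 with an SE of 0.32. Neither reached the 2-fold limit.

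Cntn1 (chr15:92051152-92341967, plus strand) had 606, 834 and 750 normalized counts in the Cre- pull-downs and 420, 460 and 406 in their inputs. These did not overlap, and Cntn1 rose by 0.79 on the log2 scale (SE 0.16, FDR = 0.00483, edgeR's quasi-likelihood test). In the Cre+ libraries the pull-downs, at 404, 613 and 505, overlapped with the inputs at 354, 440 and 407 (log2 fold change 0.33, SE 0.25, FDR = 0.452). The difference between both labels was -0.43 (SE 0.28, FDR = 0.419).

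Cadm1 (chr9:47530170-47862280, plus strand), the synaptic cell adhesion molecule that joins both sides of a synapse, was the most uneven member. The pull-downs labelled Cre+ had 752, 146 and 232 normalized counts, and the inputs 187, 218 and 185. Library 1 stood 3.24-fold above the next, and the remaining pull-downs fell on both sides of the inputs. The log2 fold change was 0.94 (SE 0.53, FDR = 0.314, edgeR's quasi-likelihood test) with that library and -0.042 (FDR = 0.939) without it. The Cre- pull-downs had 147, 93.5 and 101.5, all below their inputs at 180.5, 184 and 177, and Cadm1 fell by 0.64 (SE 0.19, FDR = 0.0364).

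Alcam (chr16:52248996-52453081, minus strand), which binds itself and the lymphocyte receptor CD6, did not pass the test in any comparison. Group means were 221 ± 8.62 (SD, n = 3) in the Cre+ pull-downs, 213 ± 14.9 in their inputs, 164 ± 32.7 in the Cre- pull-downs and 193 ± 17.2 in their inputs. Pull-downs and inputs overlapped in both genotypes, and the log2 fold changes were 0.040 (SE 0.25) and -0.21 (SE 0.18). The lowest Alcam value of the 12, 130.4, and the highest, 227, were both pull-downs.

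**Figure D3:**
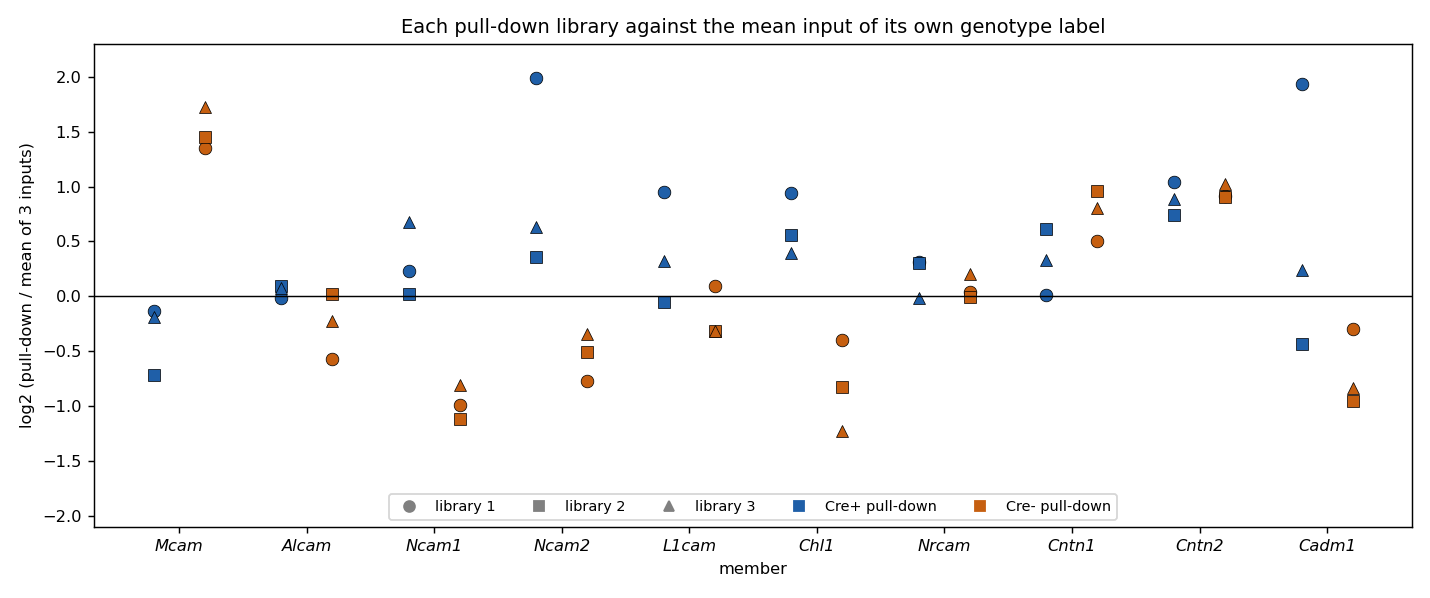
Log2 ratio of each pull-down library to the mean of the 3 inputs with the same genotype label, for each member. Cre+ library 1 (blue circles) lies at 1.99 for Ncam2 and 1.94 for Cadm1, apart from libraries 2 and 3, whereas the 3 Cre- ratios (orange) of a member span 0.83 at most, for Chl1.

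The same library that was high for Ncam2, Cadm1 and L1cam also had the highest summed endothelial level, 793 normalized counts against 128.5 and 189 in the other Cre+ pull-downs. Its log2 ratios to the mean input were spread more widely over all genes (SD 1.73) than those of the other Cre+ pull-downs (1.02 and 1.31) and of the Cre- pull-downs (0.724 to 0.832), and 23.9% of all genes had a ratio above 1. The part of these properties in the values of the 3 members was not tested. Markers of Schwann cells and satellite glia, cells that also hold Ncam1, L1cam and Chl1, were read from 7 listed genes with the Cre+ label and 10 with the Cre- label. They summed to 1857 to 2722 in the Cre+ pull-downs and 2914 to 4014 in their inputs. In the Cre- libraries they summed to 1653 to 2036 and 3286 to 4662. These sums were lower in the pull-downs of both genotypes. Of the single genes, 0 of 7 tested were called with the Cre+ label, beside 6.91% of all genes. Of the 7, 2 had an unadjusted p below 0.05 with edgeR's quasi-likelihood test, as had 2109 of all 8947 genes. With the Cre- label 3 of 9 were called lower (Pmp22, Apoe and Fabp7), beside 5.83% of all genes. S100b had a log2 fold change of 0.69 (FDR = 0.0114) there. The part of this list in the lower values of Ncam1, Chl1 and Cadm1 with the Cre- label was not tested.

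The test of the difference between genotypes called Mcam alone among the 10 members, where 4.37% of the 8954 genes tested were called. A further 4 members had an unadjusted p below 0.05, as had 1746 of all 8954 genes, and a higher enrichment with the Cre+ label, but none of the 4 passed the FDR threshold. These were Ncam2 with a difference of 1.71 (SE 0.67, FDR = 0.192), Cadm1 with 1.60 (SE 0.62, FDR = 0.185), Chl1 with 1.43 and Ncam1 with 1.30 (SE 0.46, FDR = 0.151) by edgeR's quasi-likelihood test. DESeq2 called all 4, with an FDR from 0.0297 for Chl1 to 0.097 for Cadm1. They were also called without Cre+ pull-down library 2, while without library 1 only Ncam1 (FDR = 0.0864) and Chl1 (FDR = 0.0737) were. Calls on all genes rose in these fits too, from 391 to 1037 with DESeq2, 1407 without library 2 and 1235 without library 1. In other fits they fell, to 43 to 138 without any 1 of the inputs and to 101 and 51 without Cre- pull-down library 2 or 3. The differences of Alcam (0.29), L1cam (0.63), Nrcam (0.12), Cntn1 (-0.43) and Cntn2 (-0.052) had standard errors of 0.28 to 0.33.

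When the pull-downs were compared directly, 3 members were called, where 2.86% of the 8954 genes were. Besides Mcam, these were Chl1, 3.12-fold higher with the Cre+ label (log2 fold change 1.64, SE 0.33, FDR = 0.0599, edgeR's quasi-likelihood test), and Ncam1, 2.14-fold higher (1.10, SE 0.24, FDR = 0.0812). These 2 calls were lost without Cre+ pull-down library 3 or any of the 3 Cre- pull-downs, where the FDR reached 0.383 for Ncam1 and 0.345 for Chl1. In these fits 0 to 5 of all genes were called higher, against 122 with all libraries. The call on Ncam1 was also lost with upper-quartile scaling (0.94, FDR = 0.116) and with library-size scaling (0.88, FDR = 0.125). Libraries of both labels did not overlap for 5 members, Mcam in one direction and Alcam, Ncam1, Ncam2 and Chl1 in the other, beside 28.5% of all genes. In the inputs, 0 members and 0 of all genes were called with edgeR's quasi-likelihood test, so the background is 0%. No member but 179 genes had an unadjusted p below 0.05 there. The log2 fold changes of the inputs ran from -0.31 for Ncam2 to 0.23 for Chl1, and groups did not overlap for Mcam and Cadm1, 2 of 10, beside 7.76% of all genes. DESeq2 and the exact test also called 0 members in the inputs.

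Levels were compared between members per kb of exon. L1cam led in each group, with 229 ± 82.3 (SD, n = 3) normalized counts per kb in the Cre+ pull-downs, 166 ± 20.6 in their inputs, 159 ± 27.2 in the Cre- pull-downs and 178 ± 15.0 in their inputs. At each of these it was above at least 98.2% of the genes. Both sets of inputs had the same order down to the seventh place, namely L1cam, Ncam1, Cntn1, Mcam, Alcam, Cadm1 and Cntn2. Mcam was the fourth there, with 32.3 ± 1.8 per kb in the Cre+ and 36.0 ± 0.243 in the Cre- inputs, and overlapped with Alcam in the former. In the Cre- pull-downs Mcam was the second, with 103 ± 14.2 per kb, between L1cam and Cntn1 (77.4 ± 12.2) and overlapping with neither. In the Cre+ pull-downs it was the seventh, with 25.8 ± 5.38 per kb, and all members from the second place (Ncam1, 67.6 ± 16.0) to the eighth (Chl1, 18.4 ± 3.66) overlapped with their neighbor in the order. Ncam2 was the last in each group, with 1.55 to 4.08 per kb.

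**Figure D4:**
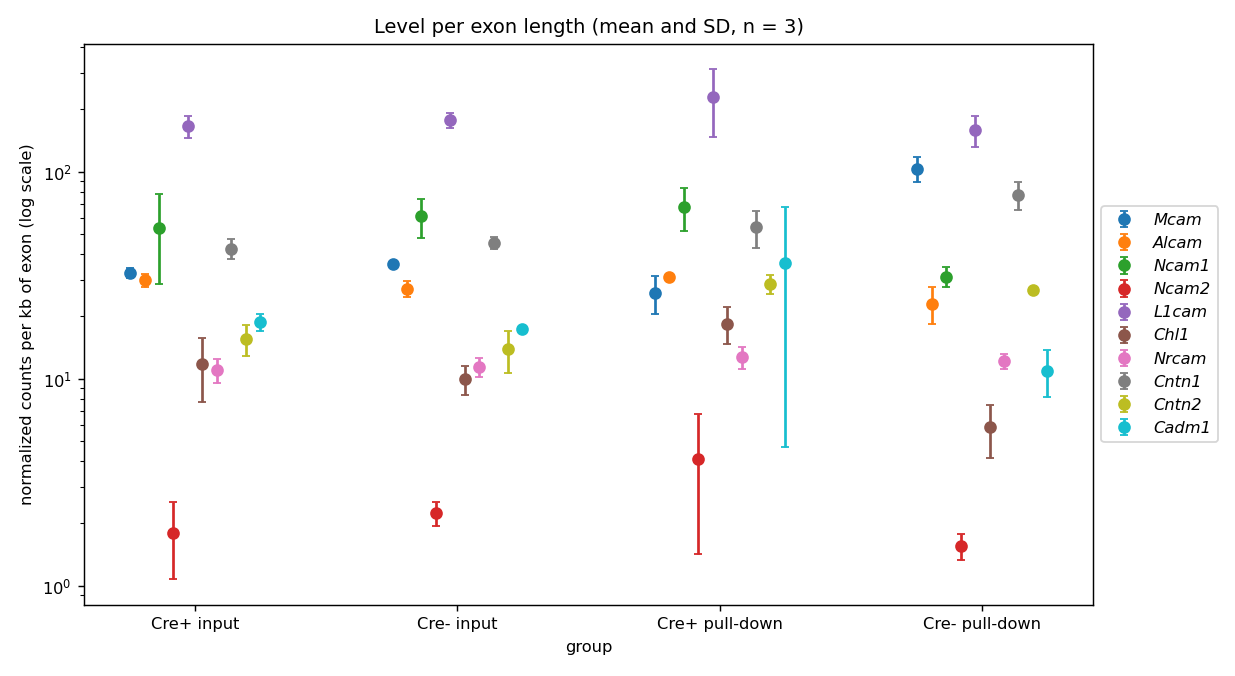
Normalized counts per kb of exon on a log scale for the 10 members in the 4 groups, as mean and SD of 3 libraries. L1cam is the highest and Ncam2 the lowest in every group, and Mcam goes from 25.8 in the Cre+ pull-downs to 103 in the Cre- pull-downs.

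The 10 members together summed to 3360 to 5202 normalized counts in the Cre+ pull-downs, 2458 to 3425 in their inputs, 3227 to 3362 in the Cre- pull-downs and 2917 to 3488 in their inputs. The share of Mcam in this sum was 1.90% to 2.40% in the Cre+ pull-downs and 9.16% to 12.2% in the Cre- pull-downs, and 3.14% to 4.34% in the 6 inputs. L1cam made up 32.1% to 45.2% of the sum in the 12 libraries.

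Enrichment in the pull-down rose with exon length across genes, which bears on the members because 9 of them have exons of over 7 kb in total. Across 8899 genes with a length, Spearman's rho between exon length and log2 fold change was 0.459 with the Cre+ label, and it was 0.323 across 11461 genes with the Cre- label (genes are not independent replicates). The median log2 fold change of genes over 7 kb was 0.635 with the Cre+ label, and of these 9 members Ncam2, Cadm1, Cntn2 and Chl1 lay above it while Alcam, Nrcam, Ncam1, Cntn1 and L1cam lay below. With the Cre- label that median was 0.237, and Cntn1 and Cntn2 alone lay above it. Mcam, at 3.35 kb, fell among genes of 2 to 4 kb, whose medians were -0.433 (Cre+), -0.185 (Cre-) and -0.158 (difference). Its values of -0.33, 1.54 and -1.84 were thus close to that median only with the Cre+ label. The part of length in these values was not tested.

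**Figure D5:**
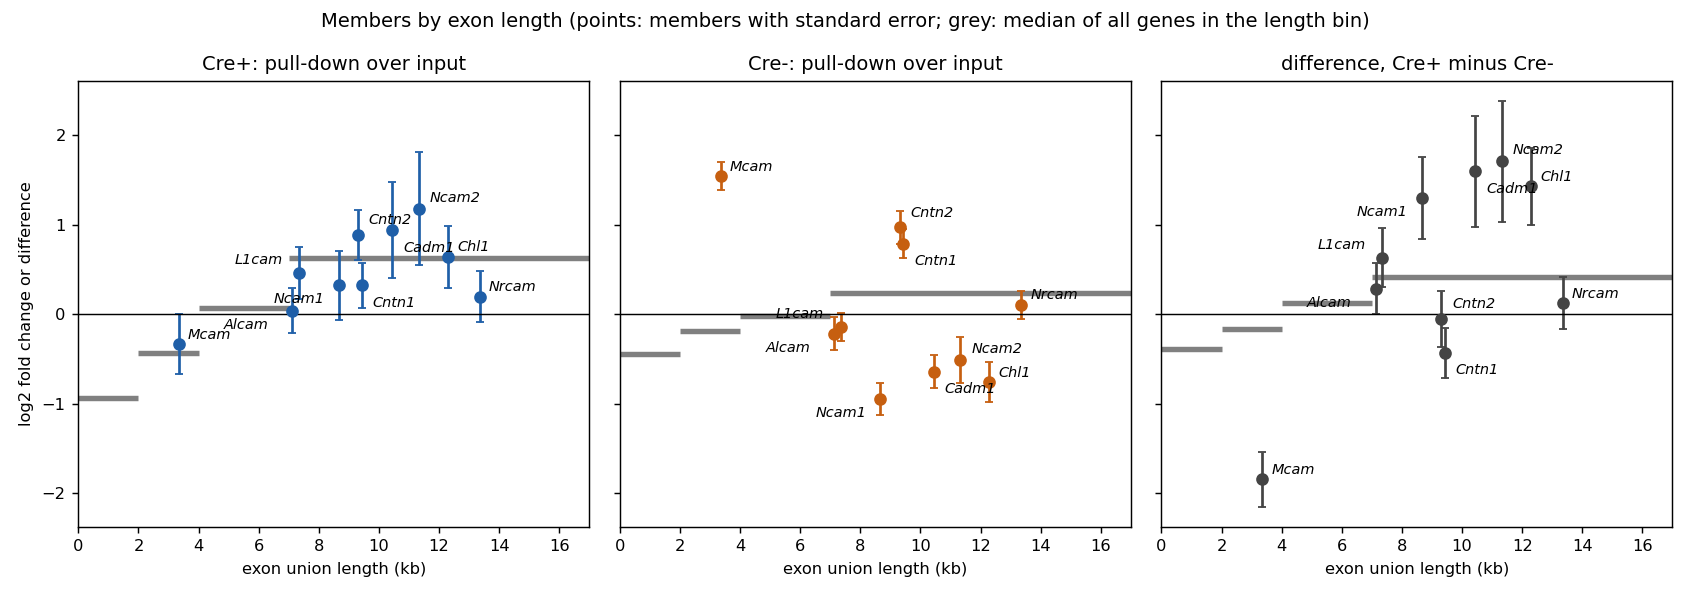
Log2 fold change (Cre+, Cre-) or difference of both against exon union length in kb, with points and standard errors for the 10 members and grey lines for the median of all genes in each length bin (the last bin is open to the right). Mcam lies near the grey line at -0.433 in the Cre+ panel and far above that at -0.185 in the Cre- panel.

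A further list of 44 immunoglobulin adhesion genes was counted to see how the wider family stood, 29 of them tested with the Cre+ label and 33 with the Cre- label. With the Cre+ label 1 rose and 1 fell, with a median log2 fold change of -0.0082. Nfasc, neurofascin of the L1 family, rose by 1.08 (SE 0.26, FDR = 0.0664, edgeR's quasi-likelihood test) from 285 ± 30.5 to 608 ± 138 normalized counts (SD, n = 3). Bsg, basigin, a partner of lactate transporters, fell by 1.78 (SE 0.44, FDR = 0.0669). With the Cre- label 5 rose and 4 fell, with a median of 0.057. Those that rose were Nfasc (1.67, FDR = 4.65e-05), the lipid-anchored proteins Opcml (1.28) and Ntm (1.90), Sdk2 (1.52), known from layer-specific contacts in the retina, and Kirrel3 (1.58), known from sensory axon sorting. Those that fell were Cd47 (-1.29), a ligand that restrains phagocytosis, Cadm4 (-1.14), a glial relative of Cadm1, Igsf8 (-1.44, FDR = 0.0291) and Vcam1 (-1.07, FDR = 0.0842), an integrin ligand. Vcam1 was not called with the replicate block or without Cre- input or pull-down library 2 or 3, Igsf8 was not without Cre- input library 1, and of the 9 genes the fit of all 12 libraries called Nfasc, Sdk2 and Cd47 alone. The shares called were 6.9% and 27.3% of the genes tested, beside the 6.91% and 11.8% of all genes given above. None of the 29 was called in the difference between genotypes, in either direction, beside 4.37% of all genes. An unadjusted p below 0.05 was found for 6 of the 29 with edgeR's quasi-likelihood test, and for 1746 of all 8954 genes. DESeq2 called 2 of the 29 lower. With the Cre+ label the call on Bsg was lost without any 1 of the 3 inputs or pull-down library 2, and the rise of Nfasc was not called without any 1 of the 3 inputs, Cre+ pull-down library 2 or library 3. Nfasc was also not called there with upper-quartile or library-size scaling.

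The list of 26 partners and processing genes held ankyrins, contactin-associated proteins, linker proteins, receptors and sheddases, and 23 were tested. The ankyrins Ank2 and Ank3 anchor the L1 family to the spectrin skeleton. Ank2 had 11516 ± 3434 normalized counts (SD, n = 3) in the Cre+ pull-downs and 1532 ± 491 in their inputs, a log2 fold change of 2.89 (SE 0.33, FDR = 0.0123, edgeR's quasi-likelihood test). It had 3631 ± 1235 and 1628 ± 177 with the Cre- label, a log2 fold change of 1.18 (FDR = 0.00339), and the difference was 1.75 (SE 0.41, FDR = 0.0559). Ank3 rose by 2.03 (SE 0.39, FDR = 0.0401) with the Cre+ label, and its difference was 1.49 (FDR = 0.0968). Without any 1 of the 3 Cre+ inputs, Ank2 was the 1 partner called with the Cre+ label, in fits that called 4 to 59 of all genes higher, against 422 with all libraries.

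Of the other partners, the integrin subunit Itgb1 had 168 ± 27.1 normalized counts in the Cre+ pull-downs and 369 ± 97.2 in their inputs (SD, n = 3), and fell by 1.15 (SE 0.30, FDR = 0.0757, edgeR's quasi-likelihood test). That call was lost without any 1 of the 3 Cre+ inputs or Cre+ pull-down library 3. Its difference between genotypes was -1.22 (FDR = 0.0968). With the Cre- label Epb4.1l3, the protein that links contactin complexes to the cytoskeleton, rose by 1.04 on the log2 scale (FDR = 0.000352), and Cntnap2, the partner of Cntn2, rose by 1.03 (FDR = 0.00166). Neither was called with library-size scaling or without Cre- input library 3, and Cntnap2 was not with upper-quartile scaling or without Cre- pull-down library 2, where the Cre- call on Ank2 was lost as well, as it was with library-size scaling. Gap43, a growth cone protein that acts downstream of Ncam1, fell by 1.75 (SE 0.19, FDR = 0.000111) from 617 ± 107 to 180 ± 35.8. In all, 2 partners rose and 1 fell with the Cre+ label, and 3 rose and 1 fell with the Cre- label, which is 13% and 17.4% of the 23, beside 6.91% and 11.8% of all genes. In the difference 2 were higher and 1 lower, again 13%, beside 4.37% of all genes. The median log2 fold changes of the list were 0.29 and 0.024, and that of the difference was 0.30. The calls on the difference of Ank3 and Itgb1 were lost without any 1 of the inputs or Cre- pull-downs, except that Itgb1 was called without Cre+ input library 1, and that of Ank2 without Cre+ input library 1, Cre- input library 2 or 3, or Cre- pull-down library 3. Fits without 1 of the inputs or Cre- pull-downs called 43 to 376 of all genes, against 391 with all libraries. The call on the difference of Ank3 was also lost with upper-quartile and library-size scaling.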

How the data were processed

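RNA was sequenced from 3 HA pull-downs and 3 inputs of each genotype label. Reads were mapped to mm10 by the authors (STAR), who deposited for each genotype a table of raw counts per gene, made with HTSeq on a refSeq annotation. The tables also hold the authors' mean FPKM, used here as a filter (above 1), and the authors' fold changes and p-values, which were not used, nor were 18 further columns of values per sample. The columns of the Cre+ libraries were assigned as groups, because the labels of those samples name their table. For the pull-downs these names (Cre, PD and a number) also match titles of Cre- samples once punctuation is dropped, and whether labels were exchanged was not tested. Their numbers only tell libraries apart.

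The counts were tested with edgeR 4.0.16 (TMM, robust glmQLFit, glmQLFTest) in R 4.3.3, on the libraries of each comparison or, for the difference, on all 12. A call needed an FDR below 0.1 together with 2-fold change. Strand use in counting is not given in the sources used here. Exon lengths were those of GENCODE M21, and RefSeq gave the coordinates, on GRCm38 in either case. No 2 replicates agreed within sampling noise. Alternatives were DESeq2 1.42.0, upper-quartile and library-size scaling, dropping the filter or asking for 10 counts in 3 samples, edgeR's exact test, 1 fit of all 12 libraries, a replicate block, dropping the fold limit, and leaving out each library. The scripts were tested on simulated data. Figures were drawn with matplotlib 3.10.9.

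The members and lists were chosen with earlier results of these data known. Genes named are the members, Runx3, Rpl22, up to 5 called genes by FDR per list and direction, and the 5 genes most correlated with Mcam, of which 1 is not reported here. The median total per library was 11819638 counts, and 3 libraries per group limit the precision of each value.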

Additional observations from a re-analysis of the deposited data

Results flagged for a closer look

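Mcam was enriched less in the libraries labelled Cre+ than in the Cre- libraries. The difference itself was tested and came to -1.84 on the log2 scale (standard error 0.30, FDR = 0.013, edgeR's quasi-likelihood test). All 3 Cre- pull-downs lay above their inputs and all 3 Cre+ pull-downs below theirs.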

How the results depend on the processing

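Mcam kept its direction and its call or lack of a call under every alternative in both genotypes and in the difference. Its log2 fold changes were -0.79 to -0.14 (Cre+), and its difference was called under all 18 alternatives. The alternative without a fold limit kept the main fit. Across all results, 681 values of members kept their direction and side of the threshold, 30 newly passed it, 12 no longer did and 27 changed sign, while 242 counts stayed within 1.5 times their value and 96 did not. The causes of the changes below were not tested. With 3 libraries per group, the standard errors of the members' log2 fold changes were 0.25 to 0.63 with the Cre+ label and 0.15 to 0.26 with the Cre- label.

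Numbers are members, other immunoglobulin genes and partners called. Counts over all genes moved as well, with the Cre+ label from 422 higher and 196 lower to 1085 and 575 (DESeq2), 786 and 457 (exact test), 1250 and 948 (fit of all 12 libraries), 249 and 266 (upper-quartile scaling) and 192 and 699 (library-size scaling). With the Cre- label, 693 and 672 became 429 and 1238 (library-size scaling) and 270 and 175 (fit of all 12 libraries, of 8954 genes in place of 11526). For the difference, 209 and 182 became 612 and 425 with DESeq2, 85 and 205 with upper-quartile scaling, and 72 and 275 with library-size scaling. Between pull-downs, 122 higher became 770 (DESeq2), 965 (fit of all 12 libraries), 75 (upper-quartile scaling) and 67 (library-size scaling). With the Cre+ label, DESeq2 called 2 other immunoglobulin genes lower, 4 partners higher and 2 lower. Upper-quartile scaling called 0 other immunoglobulin genes higher, as did library-size scaling, which called 5 lower and 3 partners lower. The exact test called 2 of the former higher and 2 lower, and 4 partners higher. In the fit of all 12 libraries 1 member was called higher, 2 and 3 other immunoglobulin genes higher and lower, and 4 and 2 partners. With the Cre- label, DESeq2 and the exact test each called 2 partners lower, library-size scaling 1 member lower and 0 partners higher, and the fit of all 12 libraries 2 other immunoglobulin genes higher and 1 lower. Without a fold limit 3 members were higher and 3 lower, and 5 and 3 partners.

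For the difference, DESeq2 called 4 members higher and 2 other immunoglobulin genes lower. Upper-quartile and library-size scaling each called 1 partner higher, and the latter 1 other immunoglobulin gene lower. Between pull-downs, DESeq2 and the fit of all 12 libraries called 4 members higher, and each of both scalings 1.

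Values near 0 changed sign with scaling. With upper-quartile scaling the Cre+ log2 fold changes of Alcam and Nrcam were -0.15 and -0.0031, the difference of Nrcam -0.053, and the pull-downs differed by -0.11 (Nrcam) and -0.075 (Cntn2). With library-size scaling the Cre+ values were -0.40 (Alcam), -0.0081 (L1cam), -0.12 (Ncam1), -0.25 (Nrcam) and -0.10 (Cntn1), the Cre- value of Nrcam was -0.13, its difference -0.11, and the pull-downs differed by -0.17 (Nrcam) and -0.13 (Cntn2).

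With each library left out in turn, 0 to 3 other immunoglobulin genes were higher and 0 to 2 lower with the Cre+ label, and 1 to 3 partners higher and 0 to 3 lower. Log2 fold changes there ran from -0.017 to 0.098 (Alcam), -0.014 to 0.58 (Ncam1) and -0.042 to 1.35 (Cadm1, lowest without pull-down library 1). With the Cre- label 1 to 2 members were higher and 0 to 1 lower, 3 to 8 other immunoglobulin genes lower, and 1 to 3 partners higher and 1 to 4 lower. For the difference 0 to 4 members, 0 to 1 other immunoglobulin genes and 0 to 4 partners were higher, and 0 to 6 and 0 to 2 of the last 2 lists lower, while Cntn2 ran from -0.19 to 0.13. Between pull-downs 0 to 3 members were higher and 0 to 1 lower, with Nrcam at -0.020 to 0.15 and Cntn2 at -0.00079 to 0.18. Between inputs Ncam1 ran from -0.42 to 0.16, Nrcam from -0.14 to 0.036 and Cntn2 from -0.016 to 0.29.

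A replicate block was fitted with the Cre- label only, since the numbers in the Cre+ column names could not be tied to samples. There 2 partners were lower with the block, against 1 without, and no call on a member changed. Of the other immunoglobulin genes, Vcam1 lost its call with the block, and Kirrel was called lower with it (log2 fold change -2.23). Pull-downs and inputs of the same number shared deviations with r of 0.0746, 0.0335 and 0.141, and each correlated best with its own number, which is a hint from the data. Since 2 of these r were under 0.1, the numbers were not taken as pairs in the main tests. Low r cannot show a lack of pairing, because each input was kept from a lysate that also gave a pull-down. The main tests thus treated pull-downs and inputs as separate groups.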

Other observations

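Among the genes whose log2 level followed Mcam most closely over the 12 libraries were Kifap3 (Pearson's r of 0.969), a kinesin-associated protein, Spp1 (0.965), also a proprioceptor marker, Magee1 (0.964) and Clu (0.963). These values describe libraries that fall into 4 groups and share their scaling.

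Rpl22, the gene that carries the tag, had 36.6 ± 8.45 normalized counts in the Cre+ pull-downs and 67.1 ± 30.1 in their inputs (SD, n = 3), a log2 fold change of -0.88 (FDR = 0.294). It had 20.0 ± 4.8 in the Cre- pull-downs and 52.9 ± 6.16 in their inputs, a log2 fold change of -1.38 (FDR = 0.00229, edgeR's quasi-likelihood test).

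The macrophage markers (2 listed genes with the Cre+ label and 4 with the Cre- label) summed to 4.85 to 112 normalized counts in the Cre+ pull-downs and 41.6 to 71.8 in the Cre- pull-downs, and the fibroblast markers (4 and 6 listed) to 66.8 to 76.5 and 25.2 to 89.8.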
